A study of Vitis vinifera with 24 samples.

Results

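The phenylalanine ammonia-lyase (PAL) cluster of grapevine (Vitis vinifera) on chromosome 16 was followed through somatic embryogenesis, in which callus grown from body tissue forms embryos. The members are the 10 PAL loci numbered from VIT_16s0039g01100 to VIT_16s0039g01360, taken by identifier out of 29971 loci in the deposited table, a rule that uses no measured value. RNA was sequenced from anthers cut from immature flowers, undifferentiated callus at day 40 of culture (40D), embryogenic callus (EC) and non-embryogenic callus (NEC). Each tissue came from the cultivars Sangiovese (SG), labelled highly competent for embryogenesis, and Cabernet Sauvignon (CS), labelled poorly competent. Each of the 8 groups had 3 libraries, labelled as biological replicates. All callus was grown in the dark from anthers, first with 2,4-D, an auxin, and BAP, a cytokinin, and later with NOA, BAP, IAA and activated charcoal. At month 4 the calli were sorted into EC and NEC by eye under a stereomicroscope, so these groups are classes of callus and not purified cells.

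PAL removes ammonia from phenylalanine to give cinnamic acid, the entry step of the phenylpropanoid pathway. Cinnamate 4-hydroxylase (C4H) and 4-coumarate:CoA ligase (4CL) then make coumaroyl-CoA, which chalcone synthase draws into flavonoids and, in grapevine, stilbene synthase draws into resveratrol-type stilbenes. Plant PAL genes often respond to wounding, pathogens and light, and grapevine holds many of them as tandem copies.

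Levels are given in FPKM, fragments per kilobase of transcript scaled to the mapped fragments of the library, so levels of different loci can be compared per length. Read depth is unknown. The relative depth, estimated from the ratio of low values to those of CS anther replicate 1, ran from 0.889 to 1.51. The copies may be similar enough to share reads, so the value of any one copy is uncertain and the summed level is given beside it. Where tissue differs in cell makeup, fewer cells with a transcript and less transcript per cell cannot be told apart. B-class MADS-box loci, stamen and petal identity genes by published locus assignments, summed to 1153 to 1430.2 FPKM in anthers, 996 to 1894 in 40D, 1.29 to 57.4 in EC and 276 to 332 in NEC. These genes were thus present in the anther libraries, and the sums of 40D and anther libraries did not overlap in either cultivar. They were 996 to 1005 FPKM in SG 40D against 1153 to 1256 in SG anthers, and 1853 to 1894 FPKM in CS 40D against 1231 to 1430.2 in CS anthers. Single loci moved differently. In SG 40D against anthers VIT_18s0001g01760 was at 345 to 368 FPKM against 715 to 848, and VIT_04s0023g02820 at 596 to 625 against 361 to 402. In CS VIT_18s0001g13460 was lower in 40D, at 41.1 to 43.6 FPKM against 47.9 to 51.6, and the other loci were higher. In NEC VIT_04s0023g02820 alone was at 257.5 to 278 FPKM in CS and 266.5 to 299 in SG.

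Several libraries stood apart from the others of their group. In CS NEC replicate 3, 92 of 21568 tested loci were at least 4-fold above both other CS NEC libraries on the FPKM + 1 scale, against 5 to 21 such loci in each of the other libraries. All 7 tested PAL members and 30 of 36 tested stilbene synthase loci were among the 92. Loci at least 4-fold below both others of the group numbered 80 in SG EC replicate 2, 69 in SG anther replicate 1 and 36 in SG anther replicate 2. They numbered 4 to 21 in each other library, and 0 PAL members were among the loci below in those 3 libraries. In SG anthers, replicates 1 and 2 differed at least 2-fold at 1498 loci with 5 FPKM or more in the higher of them, and replicate 3 lay between them at 96.5% of these, at a median position of 0.483 of the way. The same held for replicate 3 at 85.2% of such loci in CS anthers, 93.8% in SG EC and 94.2% in CS EC, while in the 40D and NEC groups it held at 34.2% to 66.2%. Whether replicate 3 of the anther and EC groups is independent of the other libraries was not tested. The SDs and adjusted p of these groups may be too low if it is not. The 40D libraries lay close together. Their B-class sums were 1869 ± 21.9 FPKM in CS and 1001 ± 4.85 in SG, against 1321 ± 101 in CS anthers and 1221 ± 59.5 in SG anthers (SD, n = 3 each). Whether the 40D libraries are independent of one another was not tested either.

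The cluster was weakly expressed. The summed level of the 10 members was 0.86 to 33.3 FPKM in 23 libraries and 139.7 in CS NEC replicate 3. In SG it averaged 1.84 ± 1.08 FPKM in EC and 19.4 ± 0.73 FPKM in NEC, and in CS 2.35 ± 1.08 FPKM in EC and 51.0 ± 76.8 FPKM in NEC (SD, n = 3 each). In anthers it was 2.70, 33.3 and 17.4 FPKM in SG and 3.68, 2.28 and 2.92 in CS. In 40D callus it was 12.2, 13.4 and 12.0 FPKM in SG and 20.3, 19.0 and 18.5 in CS. In EC it was 3.01, 0.86 and 1.67 FPKM in SG and 1.36, 3.51 and 2.18 in CS. In NEC it was 18.6, 20.0 and 19.7 FPKM in SG and 7.96, 5.36 and 139.7 in CS.

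By the group median, the order from low to high was SG EC, CS EC, CS anthers, CS NEC, SG 40D, SG anthers, CS 40D and SG NEC. The libraries of SG EC and CS EC overlapped, as did those of CS EC and CS anthers. CS anthers lay below CS NEC without overlap. CS NEC replicate 3 lay above all other libraries, so CS NEC overlapped the range of every group above it in the order. SG anthers spanned the range from EC to above 40D callus and so overlapped both neighbours, and CS 40D and SG NEC overlapped as well.

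**Figure D1:**
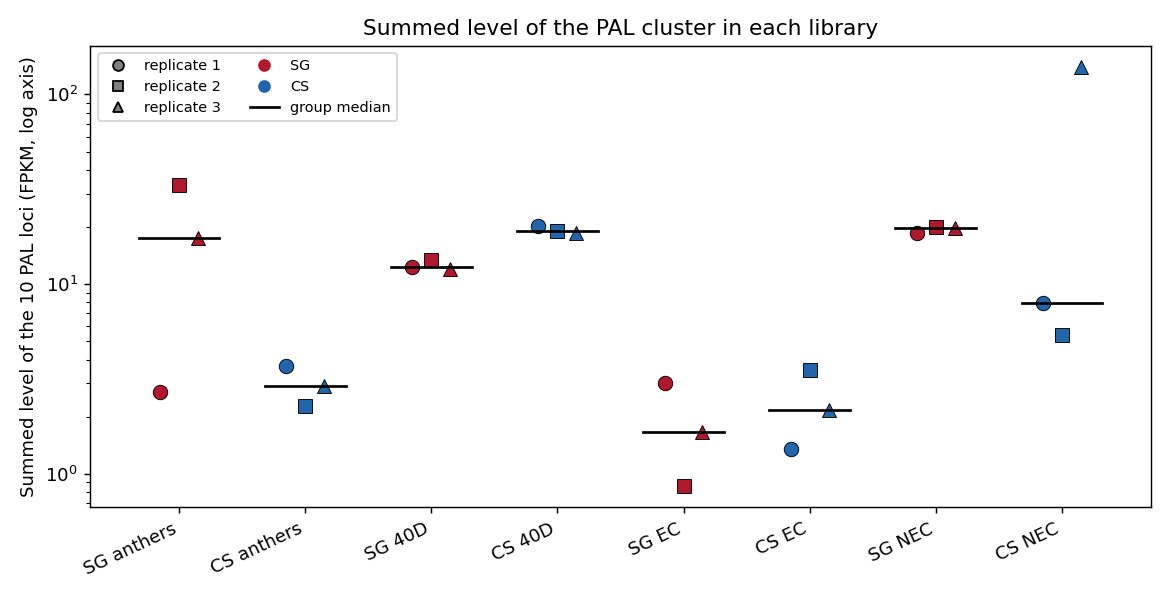
Summed FPKM of the 10 PAL loci on a log axis for each library, by group, with points for libraries and a bar for the group median. The 6 EC libraries lie between 0.86 and 3.51 FPKM, and CS NEC replicate 3, at 139.7 FPKM, lies above all others.

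The members differed in level, and CS NEC replicate 3 weighed on their means. VIT_16s0039g01100, VIT_16s0039g01130, VIT_16s0039g01320 and VIT_16s0039g01360 averaged 3.20, 3.16, 3.15 and 2.69 FPKM over the 24 libraries, with medians of 2.60, 0.972, 1.56 and 1.39 FPKM. Their means without CS NEC replicate 3 were 2.31, 1.57, 1.81 and 2.45 FPKM, and VIT_16s0039g01360 ranked first. VIT_16s0039g01170, VIT_16s0039g01110 and VIT_16s0039g01120 averaged 1.29, 0.995 and 0.746 FPKM, and 0.747, 0.603 and 0.572 FPKM without that library. VIT_16s0039g01300, VIT_16s0039g01280 and VIT_16s0039g01240 averaged 0.438, 0.186 and 0.0338 FPKM and failed the filter of 1 FPKM or more in at least 3 libraries, so 7 of 10 members were tested. Of the 240 member values, 34 were listed at 0, which in such a file can be a failed estimate. The highest library was CS NEC replicate 3 for 8 members, SG anther replicate 2 for VIT_16s0039g01280 and SG NEC replicate 2 for VIT_16s0039g01360.

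The 7 tested members moved together across libraries to different degrees. Over the 24 libraries, the Pearson r between their log2(FPKM + 1) values ran from 0.368 to 0.965 over 21 pairs, with a median of 0.853. It was 0.965 between VIT_16s0039g01130 and VIT_16s0039g01170, which are among the members with every SG 40D library below every CS 40D library. These values are a description: the copies may share reads, and CS NEC replicate 3 is high for all 7.

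**Figure D2:**
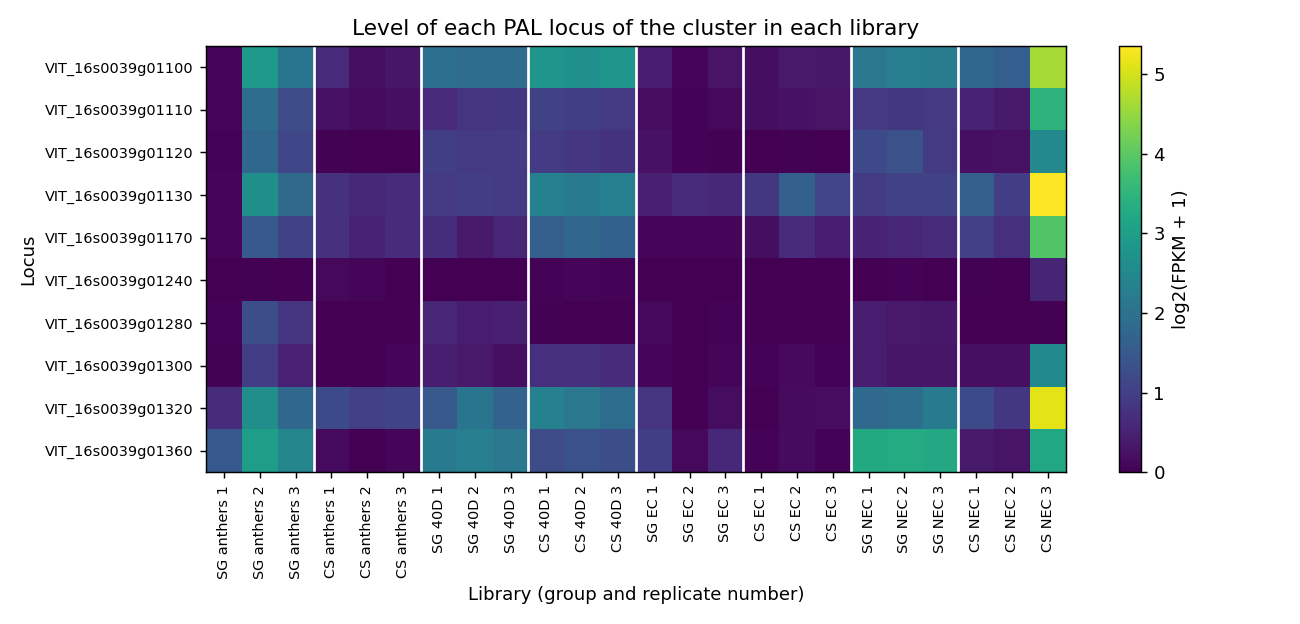
Level of each of the 10 PAL loci (rows) in each of the 24 libraries (columns, grouped by tissue and cultivar), as log2(FPKM + 1) by colour. The column of CS NEC replicate 3 is bright for most loci, VIT_16s0039g01130 being the brightest at 39.8 FPKM, while the EC columns are dark.

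The high level in CS NEC replicate 3 ran through the cluster. Each tested member was 9.65 to 27.4 times the higher of the other CS NEC libraries there, and the summed level 17.6 times. VIT_16s0039g01130 stood at 2.08, 0.969 and 39.8 FPKM in CS NEC replicates 1, 2 and 3, and VIT_16s0039g01320 at 1.31, 0.815 and 33.9 FPKM. VIT_16s0039g01280 was the exception, listed at 0, 0 and 0.017 FPKM. In the same library the stilbene synthase loci summed to 6.71 times the higher of the other CS NEC libraries, 3 PAL loci elsewhere in the genome to 2.41 times, C4H to 1.83 times, 4CL to 1.51 times and chalcone synthase to 0.991 times. What set this library apart was not tested.

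Embryogenic callus was compared with non-embryogenic callus of the same cultivar to see how the cluster differs between calli that do and do not form embryos. The fitted difference was negative for all 7 tested members in each cultivar. In SG, 4 of 7 passed the test, all lower in EC, where 32.2% of all tested loci were lower. In CS, 6 of 7 passed, all lower in EC, where 27.9% of all tested loci were lower. The test was limma's moderated test on log2(FPKM + 1), with Benjamini-Hochberg adjustment over all tested loci and a threshold of 0.05. The median log2 fold change of the 7 members was -1.02 in SG and -1.45 in CS, against 0.15 and 0.31 over all tested loci. Median-of-ratios scaling brought the medians over all loci to 0.04 and 0.05, with the same counts of members. The median of the members in CS rests on CS NEC replicate 3. Without it the 7 changes in CS ran from -1.39 to -0.10. Every EC library lay below every NEC library for 7 of 7 tested members in SG and 6 of 7 in CS, against 34.2% and 28.5% of all tested loci.

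VIT_16s0039g01100 was at 0.332, 0.0659 and 0.213 FPKM in SG EC, against 3.34, 3.92 and 3.74 in SG NEC. Every SG EC library was below every SG NEC library, and the locus fell by 1.96 on the log2 scale (SE 0.604, limma adjusted p 0.00622). In CS it was at 0.154, 0.283 and 0.273 FPKM in EC, against 2.46, 2.04 and 23.8 in NEC. Its change there was -2.37 (SE 0.604, limma adjusted p 0.00142), and kept its call under every alternative that held it in each cultivar.

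VIT_16s0039g01360 was at 0.983, 0.0901 and 0.527 FPKM in SG EC, against 8.50, 8.75 and 8.37 in SG NEC. It fell by 2.68 in SG (SE 0.508, limma adjusted p 8.32e-05), the largest fall of a member there. In CS EC it was at 0.0349, 0.113 and 0.0348 FPKM, against 0.299, 0.214 and 8.18 in CS NEC, a fall of 1.20 (SE 0.508, limma adjusted p 0.0373). Without CS NEC replicate 3 that CS change was -0.24 (limma adjusted p 0.441), and the CS call was lost in 4 of 6 fits that left out 1 library. The other CS NEC libraries were so low that log2(FPKM + 1) left little room for a larger fall.

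VIT_16s0039g01320 fell in both cultivars, with changes of -1.67 in SG and -2.29 in CS (SE 0.711 each, limma adjusted p 0.0392 and 0.00652). It was at 0.771, 0 and 0.135 FPKM in SG EC, against 2.58, 2.85 and 3.69 in SG NEC. Its SG call was lost in 5 of 6 fits that left out 1 library. VIT_16s0039g01120 also fell in both, with changes of -1.02 in SG and -0.98 in CS (limma adjusted p 0.0397 and 0.0467), but leaving out 1 library lost the call in 5 of 6 fits in SG and 4 of 6 in CS. Its CS change was -0.21 without CS NEC replicate 3 (limma adjusted p 0.512). It was at 0, 0.0158 and 0 FPKM in CS EC, against 0.156, 0.177 and 4.74 in CS NEC. At such levels a change in log2(FPKM + 1) stays small however far the locus falls, so that fit could not show a large fall. VIT_16s0039g01110 and VIT_16s0039g01170 passed in CS and not in SG. The difference between the cultivars did not pass the test for either (limma adjusted p 0.668 and 0.297). Neither passed in CS without CS NEC replicate 3 (limma adjusted p 0.556 and 0.111). In SG, VIT_16s0039g01110 was at 0.129, 0.0364 and 0.0881 FPKM in EC, against 0.862, 0.827 and 0.846 in NEC. VIT_16s0039g01170 was at 0.0503, 0.0631 and 0.0681 FPKM in SG EC, against 0.447, 0.496 and 0.564 in SG NEC. Both were lower in SG EC without overlap, at levels where log2(FPKM + 1) shows little of a fall. VIT_16s0039g01130 passed in neither: it was at 0.833, 2.104 and 1.16 FPKM in CS EC, against 2.08, 0.969 and 39.8 in CS NEC.

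The CS count depended on 1 NEC library. Without CS NEC replicate 3, 2 members were lower in CS EC, VIT_16s0039g01100 (-1.39, limma adjusted p 0.00987) and VIT_16s0039g01320 (-0.92, limma adjusted p 0.0298). Members with low levels in the other CS NEC libraries could fall only a little on the log2(FPKM + 1) scale. Leaving out any 1 CS EC library gave 3, and leaving out SG NEC replicate 1 or 2, or SG EC replicate 2 or 3, gave 2 in SG in place of 4. With each pair of groups fitted alone, 7 members were lower in SG EC and 1 in CS EC. The shares of all tested loci lower in these fits are not given, so the counts have no background to be read against.

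**Figure D3:**
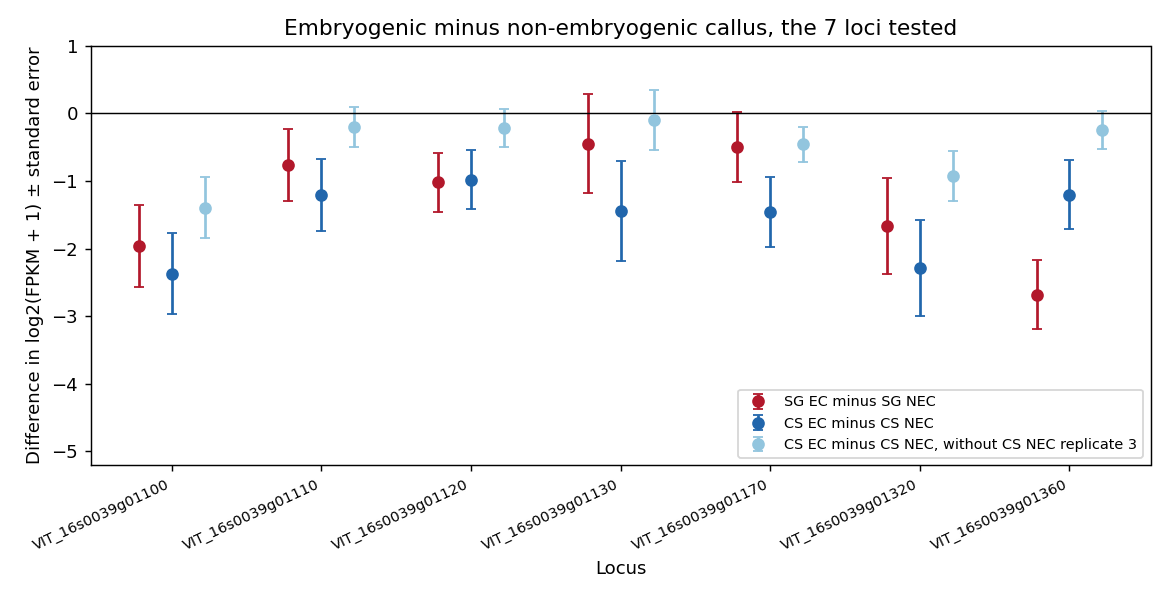
Difference in log2(FPKM + 1) between EC and NEC for the 7 tested PAL loci, with the standard error from limma, for SG, for CS and for CS without NEC replicate 3. All 21 points lie below 0, and without CS NEC replicate 3 the CS differences shrink to between -1.39 and -0.10.

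The interaction term compares the change between EC and NEC across the cultivars, SG minus CS. In limma 0 of 7 members passed, and 0 had an unadjusted p under 0.05, while among all tested loci 15.2% passed as higher and 31.8% as lower. The nearest was VIT_16s0039g01360, at -1.48 (SE 0.718, limma adjusted p 0.0996). Without CS NEC replicate 3 this locus passed, at -2.43 (SE 0.377, limma adjusted p 5.45e-05), a larger fall in log2(FPKM + 1) in SG than in CS. The CS NEC libraries left were at 0.299 and 0.214 FPKM, against 8.50, 8.75 and 8.37 in SG NEC. CS thus had little room to fall on this scale, so the term cannot tell a deeper fall in SG from a higher start.

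Callus at day 40 was compared with the anthers it grew from. In CS, every 40D library lay above every anther library for all 7 tested members, against 38.6% of all tested loci. In the test 2 members passed as higher, where 35.6% of all tested loci were higher. VIT_16s0039g01100 was at 5.96, 5.45 and 5.90 FPKM in CS 40D, against 0.589, 0.165 and 0.256 in CS anthers, a rise of 2.35 on the log2 scale (SE 0.604, limma adjusted p 0.00154). VIT_16s0039g01360 was at 1.32, 1.55 and 1.45 FPKM in CS 40D, against 0.107, 0 and 0.0723 in CS anthers, a rise of 1.20 (SE 0.508, limma adjusted p 0.0375). This second call was lost whenever any 1 library of either group was left out. The SE was pooled over all groups, and with CS 40D and CS anthers fitted alone all 7 members passed as higher. That fit rests on the small spread within those groups, whose libraries may not be independent. The share of all tested loci higher in it is not given. With each 40D group taken as 1 sample, VIT_16s0039g01100 alone passed.

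In SG, 0 of 7 passed in limma for 40D against anthers and 0 had an unadjusted p under 0.05, against 36.8% of all tested loci called as higher and 39.9% as lower. All 7 overlapped between the groups, where 38% of all tested loci lay above and 40.1% below without overlap. The SG anther libraries were far apart. VIT_16s0039g01100 was at 2.86, 2.73 and 2.79 FPKM in SG 40D, against 0.0736, 6.33 and 3.23 in SG anthers. For the 7 tested members, anther replicate 3 stood at 0.402 to 0.561 of the way from replicate 1 to replicate 2. With SG anther replicate 1 left out, the 7 log2 fold changes ran from -1.32 to -0.46 and none passed. With CS NEC replicate 3 left out of the fit as well, 6 of 7 were lower in SG 40D than in SG anthers. That pair of exclusions was chosen after the data were seen, and the share of all tested loci lower in that fit is not given. Only SG anther replicates 2 and 3 then remained, and whether replicate 3 is independent was not tested. CS NEC replicate 3 enters this comparison only through the spread shared by all groups.

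The difference between the cultivars in this step passed for 1 member. The change of VIT_16s0039g01100 was lower in SG than in CS by 2.11 on the log2 scale (SE 0.854, limma adjusted p 0.0472), where 21.3% of all tested loci were lower. No member passed with SG anther replicate 2 or 3, any CS anther library or any 40D library left out. Without SG anther replicate 1, VIT_16s0039g01100 and VIT_16s0039g01130 passed, at -2.91 and -2.95. The share of all tested loci lower in that fit is not given.

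Month-4 callus was compared with the 40D callus of the same cultivar. In EC against 40D, 2 of 7 members fell in SG and 4 of 7 in CS, where 29.7% and 26.5% of all tested loci were lower. Every EC library lay below every 40D library for all 7 tested members in both cultivars, against 32.2% of all tested loci in SG and 28.5% in CS. VIT_16s0039g01100 fell in both, with changes of -1.66 in SG and -2.45 in CS (SE 0.604 each, limma adjusted p 0.0177 and 0.00107), and so did VIT_16s0039g01360, at -1.63 in SG and -1.20 in CS (SE 0.508 each, limma adjusted p 0.00676 and 0.0377). VIT_16s0039g01170 and VIT_16s0039g01320 fell in CS, at -1.27 and -2.02 (limma adjusted p 0.032 and 0.0146). In CS, leaving out 1 library lost the call of VIT_16s0039g01360 in 6 of 6 fits and that of VIT_16s0039g01170 in 5 of 6. With each pair of groups fitted alone, all 7 members passed as lower in EC in both cultivars. The shares of all tested loci lower in those fits are not given, and the 40D libraries lay close together. With each 40D group taken as 1 sample, 0 passed in SG and 1 in CS, and leaving out CS EC replicate 1 or 3 or any CS 40D library gave 2 in CS. These comparisons share the EC libraries with those against NEC.

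In NEC against 40D, 0 of 7 passed in limma in either cultivar and 0 had an unadjusted p under 0.05. Among all tested loci, 25.7% passed as higher and 21.8% as lower in SG NEC, and 32% as higher and 31.2% as lower in CS NEC. Without CS NEC replicate 3, 3 members were lower in CS NEC than in CS 40D: VIT_16s0039g01170 (-0.81), VIT_16s0039g01320 (-1.10) and VIT_16s0039g01360 (-0.96). The share of all tested loci lower in that fit is not given. In SG, VIT_16s0039g01360 was at 8.50, 8.75 and 8.37 FPKM in NEC, against 3.63, 3.89 and 3.36 in 40D. These groups did not overlap, but the change of 1.05 (SE 0.508) had a limma adjusted p of 0.0998.

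The same tissues were compared between the cultivars. VIT_16s0039g01360 was higher in SG in anthers and in NEC. It was at 1.77, 6.90 and 4.41 FPKM in SG anthers, against 0.107, 0 and 0.0723 in CS anthers. It was 2.21 higher there on the log2 scale (SE 0.508, limma adjusted p 0.00158), where 20% of all tested loci were higher. In NEC it was at 8.50, 8.75 and 8.37 FPKM in SG, against 0.299, 0.214 and 8.18 in CS, a difference of 1.97 (SE 0.508, limma adjusted p 0.00297), where 31.7% of all tested loci were higher. With the NEC groups fitted alone this call was lost (limma adjusted p 0.0972). In 40D it was at 3.63, 3.89 and 3.36 FPKM in SG, against 1.32, 1.55 and 1.45 in CS, without overlap but with a limma adjusted p of 0.131. In EC the groups overlapped, and the limma adjusted p was 0.448. The anther difference kept its call under every alternative that held the locus.

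VIT_16s0039g01170 lay the other way in NEC. In NEC it was at 0.447, 0.496 and 0.564 FPKM in SG, against 1.03, 0.666 and 13.9 in CS. It was lower in SG by 1.30 (SE 0.518, limma adjusted p 0.042), where 21.7% of all tested loci were lower. This call was lost without CS NEC replicate 3 (-0.29, limma adjusted p 0.377), and 0 members were called lower without any 1 SG NEC library. Without CS NEC replicate 3, 3 members were higher in SG NEC, VIT_16s0039g01120, VIT_16s0039g01320 and VIT_16s0039g01360. Without SG anther replicate 1, 3 were higher in SG anthers, VIT_16s0039g01100, VIT_16s0039g01120 and VIT_16s0039g01360. The shares of all tested loci higher in those fits are not given. In limma 0 of 7 members passed between the cultivars in 40D and in EC, with 1 and 0 at an unadjusted p under 0.05. Among all tested loci 30.8% were called higher and 26.1% lower in SG 40D, and 19.3% higher and 32.1% lower in SG EC. In 40D VIT_16s0039g01170 was at 0.622, 0.300 and 0.482 FPKM in SG and 2.09, 2.41 and 2.19 in CS, with a limma adjusted p of 0.0683.

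The shares of single copies in the summed level show the same loci without the size of the sum. VIT_16s0039g01360 gave 10.5% to 65.7% of the summed FPKM in the 12 SG libraries, against 0% to 8.15% in the 12 CS libraries. VIT_16s0039g01170 gave 1.67% to 7.34% in SG and 9.94% to 20.5% in CS. The cultivars did not overlap in either share. In NEC the share of VIT_16s0039g01360 was 45.8%, 43.8% and 42.5% in SG, against 3.76%, 4.00% and 5.86% in CS. CS NEC replicate 3, whose level of this locus was near that of SG NEC, thus kept a low share of it. These shares were chosen after the values were seen and have no test of their own, and a share can move because another copy moved. Whether sequence differences between the cultivars change how reads are assigned to the copies was not tested.

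VIT_16s0039g01130 took 53.1% to 61.4% of the summed level in CS EC, against 18.1% to 28.5% in CS NEC. In SG EC it took 12.9%, 65.1% and 31.7%, against 5.09%, 5.34% and 5.48% in SG NEC. Of the untested members, VIT_16s0039g01280 was at 0 to 1.43 FPKM in SG, listed at 0 in 1 of 12 libraries, and at 0 to 0.0237 FPKM in CS, listed at 0 in 10 of 12. VIT_16s0039g01240 was listed at 0 in 10 of 12 SG libraries and 4 of 12 CS libraries, with a highest level of 0.474 FPKM in CS NEC replicate 3.

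**Figure D4:**
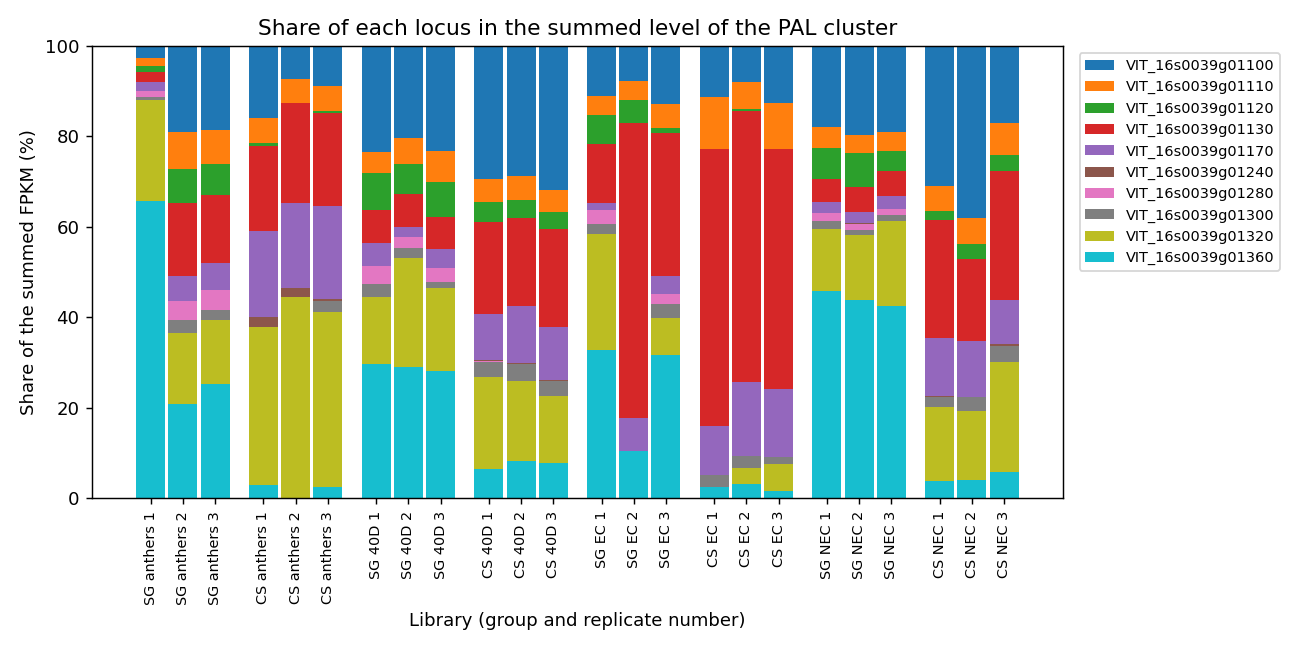
Share of each of the 10 PAL loci in the summed FPKM of the cluster, one bar for each library, adding up to 100%. VIT_16s0039g01360, at the foot of each bar, takes 10.5% or more in every SG library and 8.15% or less in every CS library.

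The cluster was a small part of the summed level of the PAL loci listed here. By published locus assignments, 3 further PAL loci lie elsewhere in the genome, VIT_06s0004g02620, VIT_08s0040g01710 and VIT_13s0019g04460. No annotation was at hand to show whether this list is complete. The cluster gave 1.05% to 10.2% of the summed level of these 13 PAL loci in 23 libraries and 24.5% in CS NEC replicate 3. The 3 dispersed loci summed to 34.9, 16.4 and 21.7 FPKM in SG EC, against 384, 306 and 381 in SG NEC. In CS they summed to 56.3, 72.5 and 60.8 FPKM in EC, against 178, 144 and 431 in NEC.

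Of 11 dispersed PAL, C4H and 4CL loci, 10 fell and 1 rose in EC against NEC in SG, and 8 fell and 2 rose in CS. The median log2 fold change was -3.47 in SG and -2.17 in CS. Among all tested loci, 32.2% fell and 46.1% rose in SG, and 27.9% fell and 51.4% rose in CS. C4H loci summed to 75.9, 23.6 and 41.6 FPKM in SG EC, against 1074, 877 and 1078 in SG NEC. Of the 36 tested stilbene synthase loci, 21 fell in SG and 29 in CS, and 0 rose. Of the 3 chalcone synthase loci, 1 fell in SG and 2 rose in CS, close to what those shares give for 3 loci. VIT_06s0004g02620 went against the other dispersed PAL loci in CS: it was at 13.5, 26.8 and 17.8 FPKM in CS EC, against 6.11, 4.46 and 8.07 in CS NEC, a rise of 1.47 (SE 0.175, limma adjusted p 2.29e-07). In SG it fell by 1.52, and the interaction was -2.99 (SE 0.247, limma adjusted p 2.36e-08).

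Among loci with a mean of 5 FPKM or more, those most like the cluster in pattern were stilbene synthase loci of chromosome 16. Over the 24 libraries, Pearson r with the summed member level, both as log2(FPKM + 1), was 0.958 for VIT_16s0100g01000, 0.943 for VIT_16s0100g01030, 0.917 for VIT_16s0100g00990, 0.906 for VIT_16s0100g00950 and 0.890 for VIT_16s0100g01170. These are the 5 highest of 14952 loci with a mean of 5 FPKM or more, and all 5 lie in the published stilbene synthase range. Among the 100 most alike were 13 of 17 stilbene synthase loci of that level, 1 of 3 dispersed PAL loci, 1 of 3 C4H loci, 1 of 4 4CL loci and 0 of 3 chalcone synthase loci. VIT_16s0100g01000 was at 0.451, 18.3 and 8.61 FPKM in SG anthers and 4.46, 4.45 and 72.3 in CS NEC, the groups in which the cluster was uneven as well. The points share libraries, CS NEC replicate 3 is high in both, and no p is given. That library also decided which loci were ranked. VIT_16s0100g01000 and VIT_16s0100g00990 averaged 6.45 and 5.58 FPKM and were at 72.3 and 59.9 FPKM in CS NEC replicate 3. Both reached a mean of 5 FPKM only through it. No ranking without that library was made.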

How the data were processed

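RNA was measured in 24 non-directional TruSeq libraries, per the labels' protocols. The authors deposited FPKM values, 1 column per library. They were made with CASAVA 1.8.2, Cufflinks 2.1.1 and TopHat2 2.0.9, per the submitters' processing notes. The genome build, the annotation and how reads matching several copies were treated: not given in the sources used here, and libraries were not stranded, so antisense reads are not told apart. Column sums ran from 729402 to 938765. No 2 libraries held identical values. Of 29971 identifiers, 0 matched the reference gene table, so no sequence or position is given.

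The 21568 loci that reached 1 FPKM in 3 or more libraries entered limma 3.58.1 (R 4.3.3), fitted to log2(FPKM + 1) with a mean for each group. The fit used all 24 libraries, had 16 residual degrees of freedom, and let the variance follow expression level. Fold changes on this scale understate those of low loci. P-values were adjusted by Benjamini-Hochberg over all tested loci, separately for each comparison, and called under 0.05. Alternatives changed the pseudocount, filter, scaling, libraries fitted, replicate block and libraries left out. Shares of all tested loci called are those of the main fit. The steps were tested on simulated data. Where a library was left out, the tested loci were kept the same, and a group left with 1 sample was assumed to vary like the others.

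All members are named. Other named loci are those of highest mean in a pathway list or among the loci between the members, the 5 most alike in pattern and the B-class MADS-box loci. The members, though found by identifier alone, and the lists were chosen with earlier results of these data known. p-values measure the spread between libraries, which may be partly technical.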

Additional observations from a re-analysis of the deposited data

Results flagged for a closer look

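VIT_16s0039g01100 changed differently between the cultivars in 40D callus against anthers. Its log2 fold change was lower in SG than in CS by an interaction of -2.11, with a limma adjusted p of 0.0472. It rose by 2.35 in CS, and in SG it was 0.24, with anther libraries at 0.0736, 6.33 and 3.23 FPKM. Of 21 alternatives this call held in 6.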

How the results depend on the processing

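Depth is unknown, so whether the lowest copies could be told from 0 was not tested. Of 22 called changes of single members, 6 kept their call in every alternative, 16 lost it in some and 0 reversed. The counts of members called that moved by over 1.5 times are given here, and the cause was not tested. The shares of all tested loci called in the alternative fits are not given. With a pseudocount of 0.1, 4 were higher in CS 40D against anthers, 5 lower in SG EC against 40D, 2 higher in SG against CS anthers, 1 lower in SG against CS 40D and 0 lower in SG against CS NEC. With no filter, 3 were lower in CS EC and 2 in SG EC against NEC, 1 higher in CS 40D against anthers, 0 lower in that interaction, 2 lower in CS EC against 40D, 2 higher in SG against CS anthers, 1 higher in SG against CS 40D and 0 lower in SG against CS NEC. With the compared groups fitted alone, 7 were lower in SG EC and 1 in CS EC against NEC, 7 higher in CS 40D against anthers, 4 lower in that interaction, 7 lower in each EC against 40D, 2 higher in SG NEC against 40D, 1 higher and 4 lower in SG against CS 40D, and 0 either way in SG against CS NEC. With equal column sums, 1 was higher in CS 40D against anthers. With each 40D group as 1 sample, 1 was higher in CS 40D against anthers, 0 lower in that interaction, and 0 lower in SG EC and 1 in CS EC against 40D. With SG EC replicate 1 and SG NEC replicate 2 left out together, 2 were lower in SG EC against NEC and 0 lower in SG against CS NEC.

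The following exclusions were chosen after seeing the data. Without CS NEC library 3 and SG anther library 1 together, 3 were lower in CS EC against NEC, 3 lower in that interaction, 6 lower in SG 40D against anthers, 7 lower in that interaction, 7 lower in CS NEC against 40D, 7 higher in SG against CS anthers, and 5 higher and 0 lower in SG against CS NEC. Without library 3 of the anther and EC groups, 2 were lower in each EC against NEC, 1 higher in CS 40D against anthers, 0 lower in that interaction, and 1 lower in each EC against 40D.

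Leaving out 1 library at a time gave 2 to 3 lower in SG EC and 2 to 7 in CS EC against NEC, 0 to 1 lower in that interaction, 1 higher in CS 40D against anthers, 0 to 2 lower in that interaction, 2 lower in SG EC and 2 to 3 in CS EC against 40D, 0 to 3 lower in CS NEC against 40D, 1 to 3 higher in SG against CS anthers, and 1 to 3 higher and 0 to 2 lower in SG against CS NEC. A filter at a mean of 5 FPKM left no member and gave no value. Pairing of the libraries by replicate number was not evident from the values, which cannot exclude it. In 0 of 12 comparisons did all 3 pairs pass a correlation of 0.1 (range -0.265 to 0.172). In 2 of 12 every library correlated best with its own number. With the replicate block, 3 were higher in CS 40D against anthers in place of 2, and 5 lower in CS EC against NEC in place of 6.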

Other observations

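The table holds 15 other loci numbered between the first and the last member, without names. Of these, 12 stayed under 1 FPKM in every library, including 4 listed at 0 throughout. The highest, VIT_16s0039g01310, was at 6.49, 6.31 and 6.03 FPKM in CS 40D, against 0, 0 and 0 in CS anthers, and at 1.95, 2.11 and 2.07 FPKM in SG 40D, against 0.0651, 0.103 and 0.0841 in SG anthers. In CS NEC it was at 1.63, 1.55 and 1.26 FPKM, so the library in which the PAL members stood high was the lowest of the group for this locus. In EC against NEC its change was -0.94 in SG and -1.0001 in CS (SE 0.112 each, limma adjusted p 2.41e-07 and 1.03e-07). VIT_16s0039g01340 was listed at 0 in 17 libraries and at 1.95 FPKM or more in the others, and VIT_16s0039g01180 stayed between 0.0487 and 0.86 FPKM.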
